A study of Saccharomyces cerevisiae with 46 samples.

Results

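Budding yeast carrying an mCherry reporter whose terminator had been given 3 inserts of random sequence was set against yeast whose reporter kept its terminator as it was. The inserted version is called modNNN, where each N stands for 9 bp of random sequence, so that a modNNN terminator is 27 bp longer. All libraries labelled modNNN or unmodified in the 3 promoter and terminator combinations that hold both were taken, which gave 14 libraries among the 34 with counts and the 46 samples of the series. Of these, 8 carried modNNN terminators and 6 carried unmodified ones. The combination of RPS3 promoter and RPS3 terminator (pRPS3-tRPS3) had 4 modNNN and 2 unmodified libraries. The PGK1 promoter with the RPS3 terminator (pPGK1-tRPS3) had 2 and 2, and so did the TSA1 promoter with the TSA1 terminator (pTSA1-tTSA1). Host genes were compared over the same libraries.

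All cells were strain BY4741 of Saccharomyces cerevisiae, and all carried the reporter on a low-copy plasmid with the selection marker URA3. Every culture was grown in medium without uracil for 4 h at 30 °C and 200 rpm to an OD600 of 0.7. QuantSeq REV was then used, an assay that sequences each transcript from its 3′ end, so that a read gives both a count and the position where the transcript ends. The labels number the replicates but do not say that they came from separate cultures or transformants, so p-values measure only the spread between these libraries, which may be technical. The inserted letters and their places in each terminator are not given in the sources used here.

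The 14 libraries held 1013603 to 3551271 counts each (median 1518329), of which 2783 to 43313 were mCherry. The strain label was checked on its marker genes in the 14 libraries. MET17 had 0 counts in every library and LEU2 had 0 or 1, while HIS3 had 94 to 356 counts. The HIS3 allele of this strain is an internal deletion that leaves the end of the gene in place, so a count of 3′ ends does not check it. The summed level of 7 genes specific to a cells was 2330 to 2770 CPM with modNNN and 2350 to 2810 CPM with unmodified terminators. The 4 genes specific to alpha cells summed to 14.4 to 25.2 CPM with modNNN and 13.9 to 28.2 CPM with unmodified terminators. CPM is the count per 1000000 counts of the library. For these sums the library total was used as it is, and elsewhere after TMM adjustment.

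A terminator holds the signals at which a nascent yeast mRNA is cleaved and given its poly(A) tail. In budding yeast these are a UA-rich efficiency element, an A-rich positioning element and the cleavage site itself, which often lies at a pyrimidine followed by A and is flanked by U-rich stretches. A single gene usually ends at a cluster of neighbouring sites, and the chosen site sets the length of the 3′ untranslated region. RPS3 encodes a protein of the small ribosomal subunit, TSA1 a cytosolic peroxiredoxin that removes peroxides, PGK1 the glycolytic phosphoglycerate kinase, and URA3 the orotidine 5′-phosphate decarboxylase of uracil synthesis.

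The native stretches below hold the sites the results turn on, read from the RefSeq genome (build R64) by position after the stop codon, with position 1 the first base after it. Capitals in the first and second lines mark each position that held at least 2% of the reporter ends with the unmodified terminator. Capitals in the last line mark each position with at least 0.5% of native RPS3 ends in the 6 libraries with a modNNN tRPS3 reporter.
RPS3 positions 34 to 63, chrXIV:303436-303465, plus strand: tacaataatttcttCTattCTagTGCacTT
TSA1 positions 85 to 114, chrXIII:220813-220842, plus strand: aaacttaatgCTattCacTGaCaaaacGaT
RPS3 positions 163 to 192, chrXIV:303565-303594, plus strand: tataatCaaaagaaaagttttgtaCaacaC

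The next base was A at 4 of the 9 capitals of the first RPS3 stretch, at 6 of the 8 of the TSA1 stretch and at 3 of the 3 of the distal RPS3 stretch. Over the 200 positions after each stop codon the next base was A at 68 of 199 positions, or 34.2%, in both genes. No capital is itself an A. How an A of the gene was told from the A of the tail is not given in the sources used here. These counts therefore do not test where cleavage falls. Both main clusters held the run CTATTC, at positions 48 to 53 of RPS3 and 95 to 100 of TSA1, with ends at its first C and T and at its last C. This run was picked out after the ends had been seen. A further copy in TSA1, at 133 to 138, lay outside the main cluster, where no position held 2% of the ends of unmodified tTSA1 reporters. It occurs on the gene's strand in the same window of 6.14% of 6027 genes.

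With tTSA1 the reporter kept its native sites and used them 27 nt further on. In modNNN libraries 40.7% ± 0.0357 of ends lay at position 133, against 40.0% ± 2.62 at position 106 in unmodified libraries (SD, n = 2 each). The next sites matched in the same way. Position 127 held 13.6% of modNNN ends against 17.1% of unmodified ends at 100, and positions 130 to 131 held 14.1% against 17.0% at 103 to 104. The ratio of modNNN to unmodified share ran from 0.795 to 1.22 over the 6 sites compared. Between 0 and 0.0319% of modNNN ends remained at any of the unshifted sites, and between 0 and 0.126% of unmodified ends lay at any of the shifted ones.

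The whole tTSA1 profiles were compared by total variation distance, the percent of ends that would have to be moved to turn one profile into the other. After a shift of 27 nt the modNNN and unmodified profiles differed by 7.84%, against 96.8% without a shift. The next best shift, 33 nt, left 68.5%. Replicates differed by 3.4% within modNNN and 5.91% within unmodified libraries. The mean end moved to position 130.6 with modNNN, against 104.4 with the unmodified terminator, a difference of 26.2 nt. The 2 modNNN libraries had means of 130.4 and 130.7, and the 2 unmodified libraries had 104.3 and 104.5. The groups did not overlap, and the exact permutation p of 0.333 is the smallest that 2 against 2 libraries allow.

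With tRPS3 the native sites were not moved as a block. The first native site, at 48 to 49, was matched at 75 to 76, which held 33.9% ± 1.68 of modNNN ends (SD, n = 4) against 25.0% ± 0.147 of unmodified ends at 48 to 49 (SD, n = 2) in pRPS3-tRPS3. In pPGK1-tRPS3 these shares were 29.4% with modNNN and 26.0% with the unmodified terminator. The later native sites held far less after the same shift. In pRPS3-tRPS3, positions 80 to 81 held 4.82% ± 0.383 of modNNN ends, against 17.5% ± 0.254 of unmodified ends at 53 to 54. Positions 85 to 86 held 1.51% ± 0.211, against 22.4% ± 0.329 at 58 to 59. Positions 89 to 90 held 1.22% ± 0.255, against 26.4% ± 0.453 at 62 to 63. Read this way, the modNNN share was 1.35 times the unmodified share at the first site. At the following ones it was 0.275, 0.0675 and 0.0464 times the unmodified share. In pPGK1-tRPS3 the same ratios were 1.13, 0.191, 0.0479 and 0.0366.

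The remaining modNNN ends with tRPS3 lay mostly at positions 56 to 57. These held 38.5%, 37.6%, 35.8% and 34.8% of ends in the 4 pRPS3-tRPS3 modNNN libraries, against 2.96% ± 0.247 in the unmodified pair. In pPGK1-tRPS3 they held 38.5% and 40.2% with modNNN, against 3.28% ± 0.346 with the unmodified terminator. Since 27 nt are inserted, the base at a given position need not be the same in the modNNN and unmodified transcripts. Position 45 also held more ends, with 2.25% to 3.77% of modNNN ends in pRPS3-tRPS3 and 4.93% to 5.81% in pPGK1-tRPS3, against 0.0589% to 0.134% of unmodified ends. In the unmodified pRPS3-tRPS3 libraries 0 of 10237 and 0 of 10190 ends lay at 85 to 86, which allows shares of up to 0.0293% and 0.0294% from a floor of 3 counts, counting error only.

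**Figure D1:**
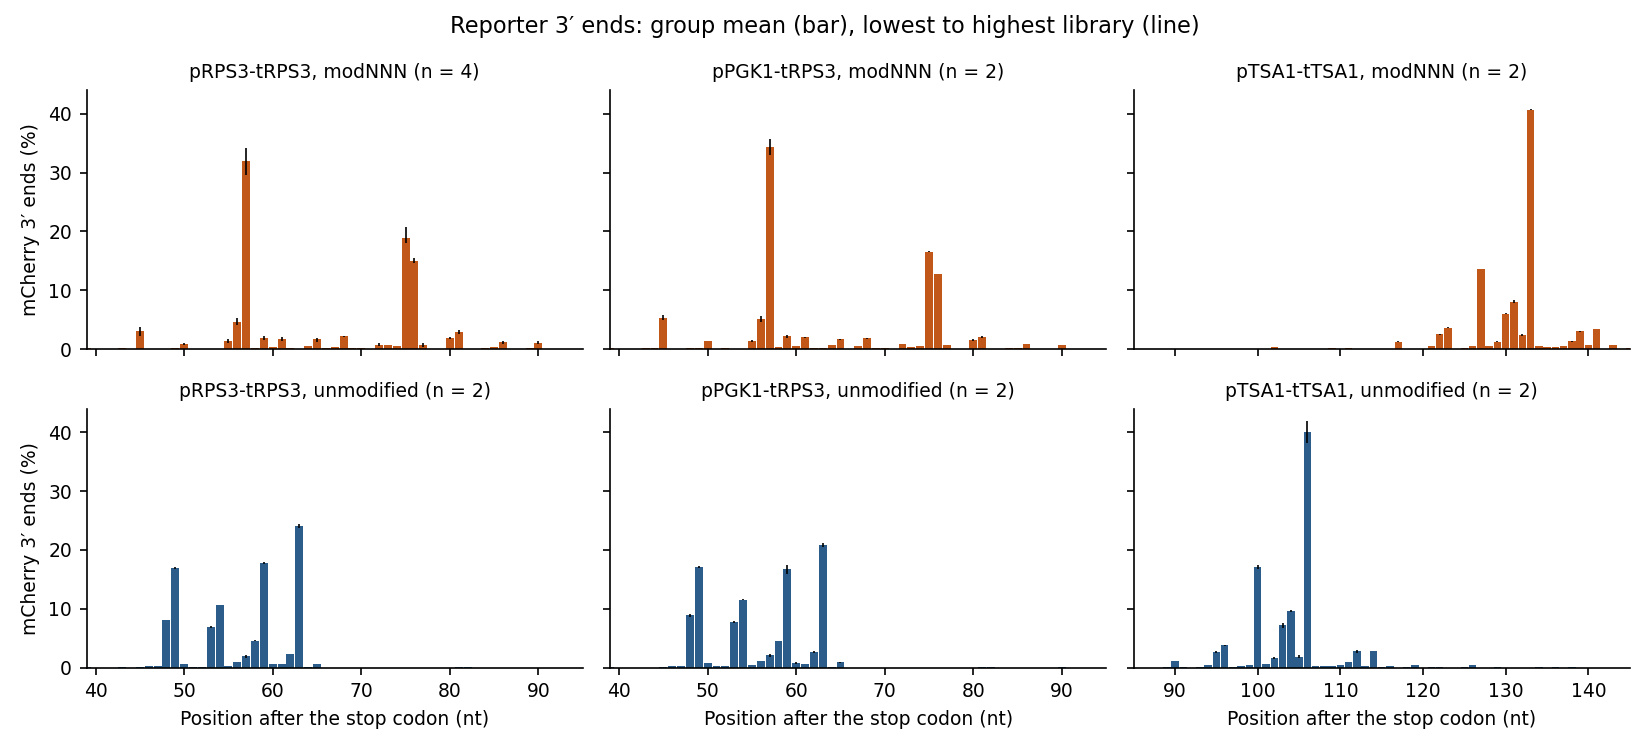
Percent of reporter 3′ ends (y axis) by position after the stop codon in nt (x axis) in the 3 promoter and terminator combinations, bars giving the modNNN mean in the upper panels and the unmodified mean in the lower ones, with a line from the lowest to the highest library. With tTSA1 the tallest position is 133 with modNNN and 106 with the unmodified terminator, while with tRPS3 the modNNN profile has its tallest groups at 56 to 57 and 75 to 76.

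As whole profiles, modNNN and unmodified tRPS3 reporters differed by 66.6% after a 27-nt shift in pRPS3-tRPS3, the best of the shifts tried, and by 89.7% without one. In pPGK1-tRPS3 the distance was 69.9% at 27 nt and 68.2% at 8 nt, the best shift there, against 88.0% unshifted. Replicates differed by 3.8% to 8.59% within modNNN and by 2.03% to 3.47% within unmodified libraries. The mean end lay at position 65.6 with modNNN and 56.4 with the unmodified terminator, over both combinations. The 6 modNNN means ran from 64.2 to 67.3 and the 4 unmodified means from 56.2 to 56.6, with no overlap. The difference of 9.23 nt had an exact permutation p of 0.0111, the smallest that 90 splits within combinations allow.

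Ends were spread over somewhat more positions with modNNN terminators. The effective number of positions, the exponential of the Shannon entropy of the profile, was 10.9 to 12.5 with modNNN and 8.77 to 10.7 with unmodified terminators. Profiles with the same terminator lay closer together. Across promoters, pPGK1-tRPS3 and pRPS3-tRPS3 profiles differed by 7.03% to 13.1% with modNNN and by 3.66% to 6.74% with the unmodified terminator. Ends assigned to the unmodified reporter lay close to those assigned to the native gene. The distances were 5.72% to 10.6% from native RPS3 and 6.04% to 6.7% from native TSA1. Both hold the same terminator sequence, and how reads that match both were assigned is not given in the sources used here. This closeness is therefore no separate check of the reporter.

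**Figure D2:**
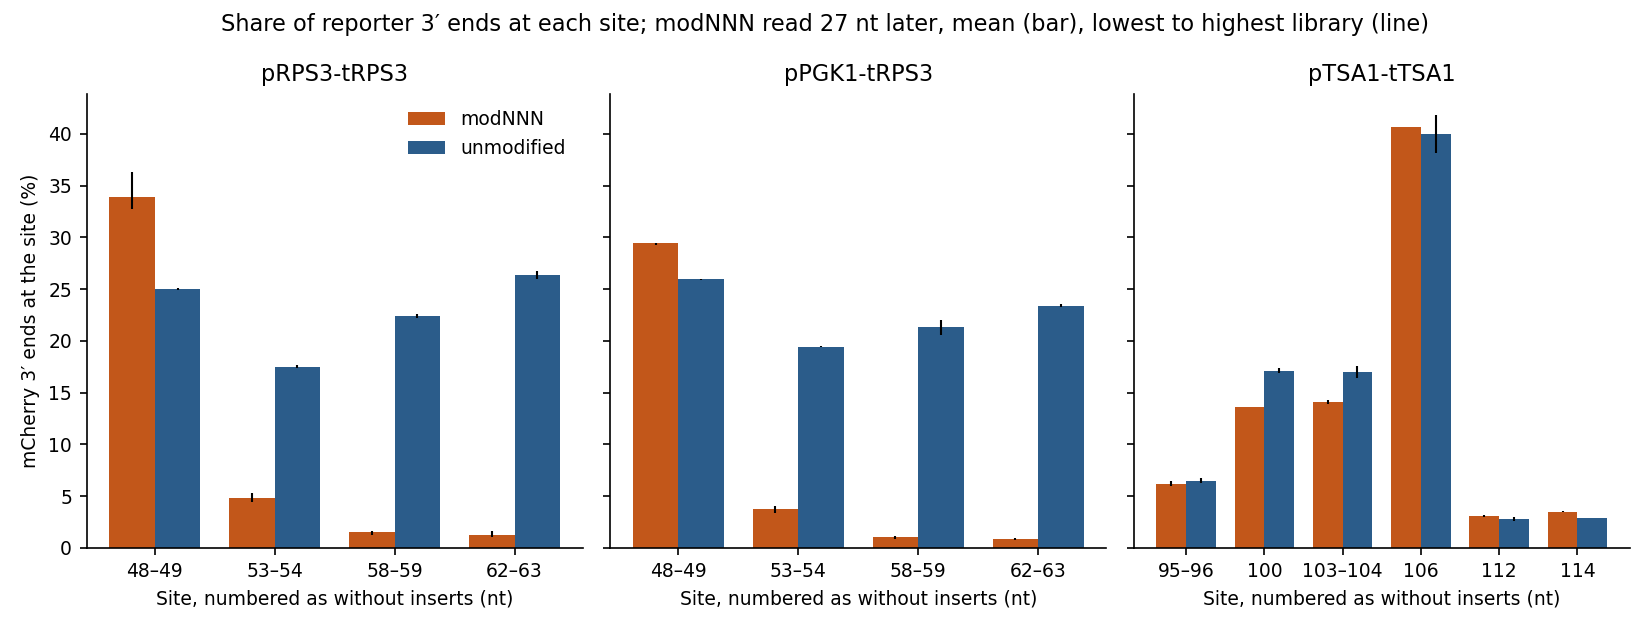
Percent of reporter 3′ ends at each native site (y axis) by site in nt after the stop codon as numbered without inserts (x axis), bars giving means with a line from the lowest to the highest library. The modNNN bar, left of the unmodified one, is read 27 nt later, which takes all inserts to lie before each site. The 6 tTSA1 pairs lie close together, while in tRPS3 the first pair (33.9% against 25.0% in pRPS3-tRPS3) is followed by pairs such as 1.22% against 26.4%.

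The 9-base and 6-base motifs that the series places in its other modified terminators were searched for in the 200 nt after the native stop codons. ATATTC, TTTCATTTC and TGTACAATA had no match on either strand of RPS3 or TSA1. Of 6027 genes, 15.6%, 0.763% and 0.448% hold them on the gene's strand, and 27.2%, 1.39% and 0.713% on either strand. Within 1 substitution of TGTACAATA, which 7.68% of genes reach, RPS3 had AGTACAATA at 32 to 40 (T1A) and TGTACAACA at 183 to 191 (T8C), with positions counted from the motif's 5′ end and the motif's base first. TATATA, the best-known form of the efficiency element and its own reverse complement, lay at 161 to 166 of RPS3 and at 69 to 74 and 71 to 76 of TSA1, which overlap. It occurs in 48.3% of genes. AATAAA, a form of the positioning element, lay at 21 to 26 of RPS3 and not in TSA1, and occurs in 30.1% of genes on the gene's strand. These are matches of letters and not tested sites.

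Reporter transcript was lower with modNNN than with the unmodified terminator in both tRPS3 combinations and higher with tTSA1. In pRPS3-tRPS3 mCherry had 3044, 4875, 2907 and 4362 CPM with modNNN, against 7052 and 7251 CPM with the unmodified terminator. The groups did not overlap, and the means were 3797 ± 973 CPM (SD, n = 4) against 7152 ± 141 CPM (SD, n = 2). In pTSA1-tTSA1 mCherry had 3753 and 4079 CPM with modNNN, against 2326 and 2688 CPM with the unmodified terminator, again with no overlap. In pPGK1-tRPS3 the 2 modNNN libraries had 7789 and 5604 CPM, against 15429 and 6440 CPM in the unmodified ones, which span the modNNN values.

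Across all genes, the reporter's change did not pass the threshold of an adjusted p under 0.05 in any single combination by edgeR's quasi-likelihood test. The log2 change was -0.91 (SE 0.25, edgeR adjusted p = 0.122) in pRPS3-tRPS3 and -0.71 (SE 0.30, adjusted p = 1.0) in pPGK1-tRPS3. In pTSA1-tTSA1 it was 0.64 (SE 0.30, edgeR adjusted p = 0.999). Averaged over the 3 combinations, whose values differ in sign, it was -0.33 (SE 0.16, edgeR adjusted p = 0.861). The pTSA1-tTSA1 change minus the pRPS3-tRPS3 change was 1.56 (SE 0.39, edgeR adjusted p = 0.164), the pTSA1-tTSA1 minus the pPGK1-tRPS3 change 1.35 (SE 0.42, 1.0), and the pPGK1-tRPS3 minus the pRPS3-tRPS3 change 0.21 (SE 0.39, 0.962). DESeq2 called the pRPS3-tRPS3 difference, at an adjusted p of 0.0255. In pPGK1-tRPS3 the value rests on the first unmodified library: without it the log2 change was 0.04. The difference between the tTSA1 and tRPS3 changes on log2 CPM was 1.42, with an exact permutation p of 0.00556 and 0.0333 after adjustment over 6 comparisons. This comparison was chosen with the values in view.

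URA3 varied with the reporter in some libraries, and the mCherry count over the URA3 count of the same library was less variable. URA3 had 3581, 5418, 3061 and 4245 CPM in the pRPS3-tRPS3 modNNN libraries, against 6613 and 6548 CPM in the unmodified pair (log2 -0.69, SE 0.25, edgeR adjusted p = 0.265). In pPGK1-tRPS3 it had 5579 and 4042 CPM with modNNN, against 6989 and 3003 CPM. In pTSA1-tTSA1 it had 1427 and 1739.8 CPM with modNNN, against 1369 and 1332 CPM. The pooled SD between replicates was 0.411 on the log2 scale for mCherry, 0.398 for URA3 and 0.105 for their ratio. In these bulk cultures, fewer cells with plasmid, fewer plasmid copies in a cell and less transcript from each copy cannot be told apart.

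Relative to URA3, the reporter was lower with modNNN on tRPS3 and higher on tTSA1. The ratio was 0.85, 0.90, 0.95 and 1.028 in pRPS3-tRPS3 modNNN libraries, against 1.07 and 1.11 in unmodified ones. In pPGK1-tRPS3 it was 1.40 and 1.39 with modNNN, against 2.21 and 2.15. In pTSA1-tTSA1 it was 2.63 and 2.35 with modNNN, against 1.70 and 2.02. The groups did not overlap in any of the 3 combinations, with mean ratios 0.855, 0.639 and 1.34 times the unmodified mean.

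The order in tTSA1 depended on the denominator. Per native TSA1 end within 200 nt of the stop codon, there were 2.28 and 2.47 reporter ends with modNNN, against 2.27 and 2.40 with the unmodified terminator, which overlap. Per native RPS3 end there were 1.58, 2.14, 1.28 and 1.75 reporter ends in pRPS3-tRPS3 modNNN libraries, against 4.54 and 4.50 in unmodified ones. In pPGK1-tRPS3 these were 5.54 and 3.16 with modNNN, against 4.28 in the second unmodified library, while the first had 41650 reporter to 3197 native RPS3 ends. Over native RPS3, TSA1 and PGK1 together, the log2 change was 0.95 in pTSA1-tTSA1, -1.10 in pRPS3-tRPS3 and -0.69 in pPGK1-tRPS3. PGK1 varied widely between replicates, so this denominator is unsteady. In pTSA1-tTSA1 PGK1 had 338 and 7202 ends with modNNN, against 3634 and 1869. Its own log2 change there was -0.78 (SE 0.91).

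The change relative to URA3 differed between the tTSA1 and tRPS3 reporters by more than the spread of replicates. The TSA1 terminator occurs only with the TSA1 promoter here, so promoter and terminator cannot be told apart in this difference. On the log2 scale the ratio changed by -0.23 in pRPS3-tRPS3 (exact permutation p = 0.133), -0.65 in pPGK1-tRPS3 and 0.42 in pTSA1-tTSA1, where the exact p of 0.333 is the smallest possible for 2 against 2. Over both tRPS3 combinations it changed by -0.44 (exact permutation p = 0.0222, 0.0667 after adjustment over 6 comparisons). The tTSA1 change minus the tRPS3 change was 0.86 (exact permutation p = 0.0037, adjusted 0.0222). All of these tests are 2-sided. The joint tRPS3 value and its difference from tTSA1 were chosen with the values in view.

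**Figure D3:**
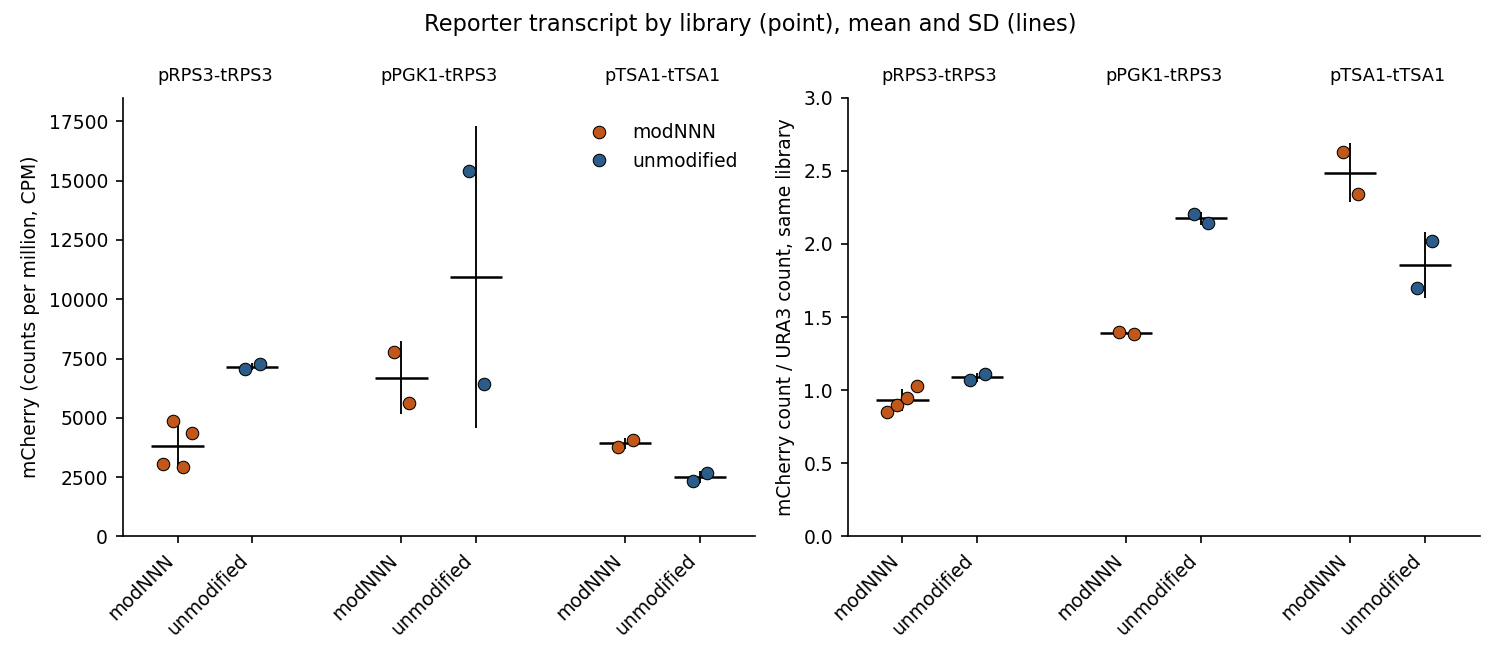
mCherry in CPM (left y axis) and the mCherry count over the URA3 count (right y axis) in the 3 promoter and terminator combinations (x axis), modNNN left of unmodified, one point per library with mean and SD as lines. The ratio is below the unmodified pair in both tRPS3 combinations (0.85 to 1.028 against 1.07 and 1.11 in pRPS3-tRPS3) and above it in pTSA1-tTSA1.

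A larger share of the mCherry count ended outside the 200 nt after the stop codon with modNNN. These shares were 6.37%, 6.35%, 5.75% and 6.58% in pRPS3-tRPS3 modNNN libraries, against 4.48% and 4.12% in unmodified ones. In pPGK1-tRPS3 they were 5.17% and 5.90% with modNNN, against 3.84% and 4.86%. In pTSA1-tTSA1 they were 7.38% and 7.57% with modNNN, against 1.38% and 1.68%. The groups did not overlap in any combination, and no test was made of this share. A modNNN terminator is 27 bp longer, so the fixed window covers less of the native sequence. Native TSA1, which has no insert, differed likewise in pTSA1-tTSA1. Within 200 nt lay 91.2% and 92.2% of its counts with modNNN, against 98.8% and 98.7%. The part of either in the reporter's shares was not tested.

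Ends assigned to native RPS3, the chromosomal gene, also lay further downstream in libraries with modNNN reporters, through a set of distal ends. The mean end of native RPS3 was at position 63.6 with modNNN and 58.1 with unmodified reporters. The difference of 5.54 nt had an exact permutation p of 0.00185, the smallest of 540 splits, and 0.00741 after adjustment over the 4 genes examined. When only positions 1 to 100 were counted the difference was 0.156 nt (exact permutation p = 0.356), a restriction added after the distal ends had been seen. TSA1 had a mean of 104.2 with modNNN and 104.2 with unmodified reporters (adjusted exact p = 0.798). PGK1 had 149.95 with modNNN and 151.35 with unmodified (adjusted exact p = 0.612), and URA3 had 16.02 with modNNN and 16.17 with unmodified (adjusted exact p = 0.419).

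The distal RPS3 ends were found where the reporter carried a modNNN version of tRPS3. Beyond position 100 lay 6.79%, 4.96%, 4.82% and 4.93% of native RPS3 ends in the pRPS3-tRPS3 modNNN libraries, against 1.02% and 0.883% in the unmodified pair. In pPGK1-tRPS3 these were 11.8% and 7.76% with modNNN, against 2.66% and 1.55%. In pTSA1-tTSA1 they were 2.57% and 2.37% with modNNN, against 1.74% and 2.08%. Every modNNN library thus lay above the unmodified pair of its combination, by the smallest margin with tTSA1.

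In the tRPS3 modNNN libraries 58.1% to 66.9% of the distal ends fell at positions 187 to 192, the end of the last stretch printed above, against 1 of 23, 4 of 20, 14 of 85 and 7 of 35 distal ends in the 4 tRPS3 unmodified libraries. This window held 2.97% to 7.07% of all native RPS3 ends in the 6 modNNN libraries, against 0.0443% to 0.438% in the 4 unmodified ones. With tTSA1 it held 0.651% and 0.482% with modNNN, against 0.443% and 0.583%. The distal ends amounted to 2.02 to 4.03 per 100 mCherry counts in tRPS3 modNNN libraries and 0.188 to 0.344 in unmodified ones. With tTSA1, whose reporter has no RPS3 terminator, they were 1.12 and 1.30 with modNNN, against 1.56 and 1.55. Reporter and native transcript share the RPS3 terminator sequence apart from the inserts. How reads that match both were assigned is not given in the sources used here, and its part in these ends was not tested.

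**Figure D4:**
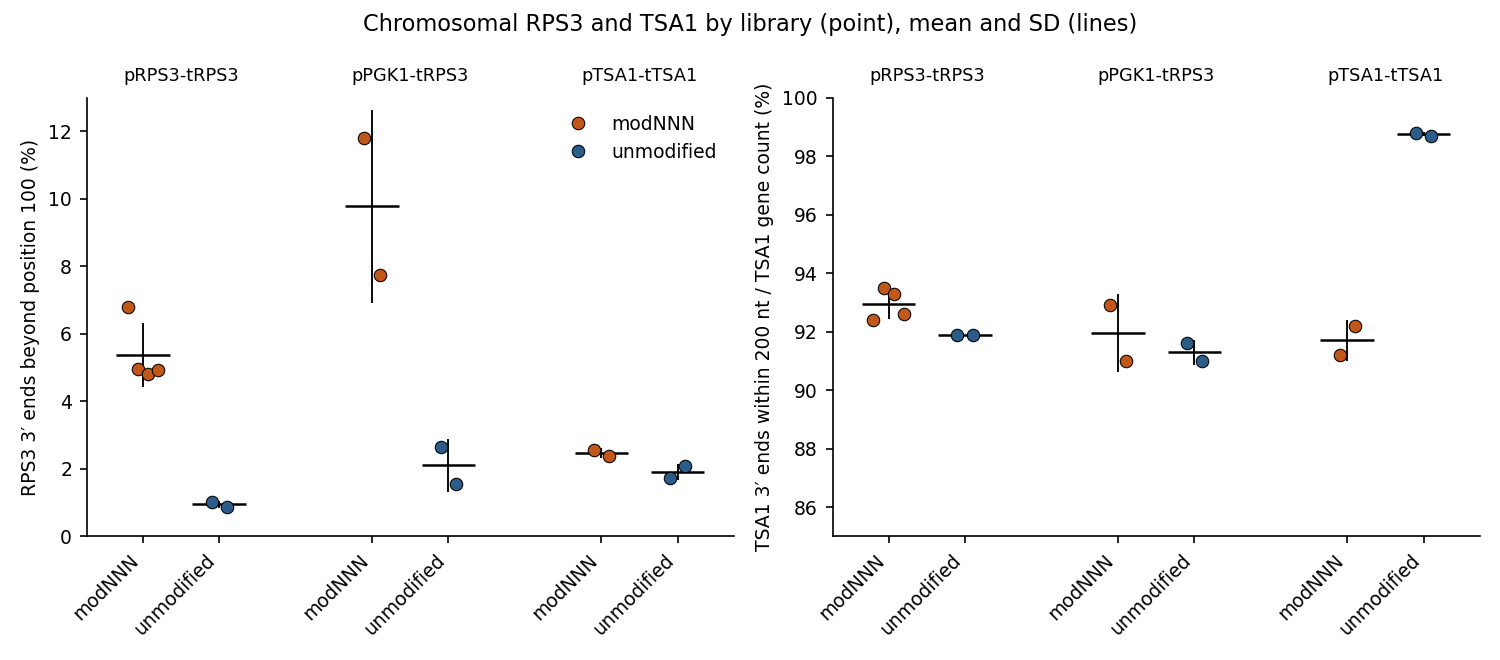
Native RPS3 and TSA1 in the 14 libraries, modNNN left of unmodified in each combination: percent of native RPS3 ends beyond position 100 (left y axis) and percent of the TSA1 gene count that ended within 200 nt of the stop codon (right y axis, drawn from 85%), one point per library with mean and SD as lines. The 6 modNNN tRPS3 libraries have 4.82% to 11.8% of RPS3 ends beyond position 100, and the unmodified ones 0.883% to 2.66%, while pTSA1-tTSA1 has 91.2% and 92.2% of TSA1 counts within 200 nt with modNNN, against 98.8% and 98.7% with the unmodified terminator.

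Native RPS3 in pRPS3-tRPS3 and TSA1 in pTSA1-tTSA1 were counted higher with modNNN, without passing the test across all genes. RPS3 had 1964, 2288, 2311 and 2489 CPM in pRPS3-tRPS3 modNNN libraries, against 1633 and 1665 CPM in unmodified ones (log2 0.46, SE 0.15, edgeR adjusted p = 0.216). Over all small-subunit ribosomal protein genes the median change in that combination was 0.35. In pPGK1-tRPS3, whose reporter has the same terminator, RPS3 had 1434 and 1796 CPM with modNNN, against 1234 and 1554 CPM, which overlap (log2 0.21, SE 0.17, edgeR adjusted p = 1.0). TSA1 had 1673 and 1654 CPM in pTSA1-tTSA1 modNNN libraries, against 1023 and 1115 CPM in unmodified ones (log2 0.64, SE 0.12, edgeR adjusted p = 0.122). The groups did not overlap in pRPS3-tRPS3 for RPS3 or in pTSA1-tTSA1 for TSA1. The TSA1 difference passed with DESeq2 (adjusted p = 9.2e-05) and with library totals as scaling (edgeR adjusted p = 0.0433).

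The unmodified tTSA1 pair stood apart in how many TSA1 reads were placed within 200 nt of the stop codon. In the tTSA1 modNNN libraries 91.2% and 92.2% of the TSA1 gene count lay within that window, against 98.8% and 98.7% in the unmodified pair. All 12 libraries outside that pair lay between 91.0% and 93.5%. Counts outside the window were 220 and 430 for TSA1 in the tTSA1 modNNN libraries, against 17 and 18 in the unmodified pair. For the reporter they were 414 and 1027 with modNNN, against 45 and 54. The part of this difference in the levels of TSA1 and of the reporter was not tested.

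Few host genes changed between modNNN and unmodified cells when the 3 combinations were averaged, and those that passed are induced in cells short of zinc. ZPS1, which encodes a cell-surface protein made at low zinc and alkaline pH, rose by 2.20 on the log2 scale (SE 0.27, edgeR adjusted p = 4.56e-05). ADH4, an alcohol dehydrogenase made at low zinc, rose by 1.12 (SE 0.19, edgeR adjusted p = 0.00948). VEL1, a gene of unknown function induced in zinc deficiency, rose by 1.91 (SE 0.37, edgeR adjusted p = 0.0374), a call that passed under 8 of 23 settings. These 3 were the host genes called among 5142 tested, 0.0583%, and none was called lower. DESeq2 called the same 3. At an unadjusted edgeR p under 0.05 there were 189 genes higher (3.68%) and 109 lower (2.12%), 5.8% of those tested.

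Averaged over the combinations other than pRPS3-tRPS3, 0 genes passed edgeR, with 239 at an unadjusted p under 0.05, and the log2 changes were 0.75 for ZPS1 (adjusted p = 1.0), 0.96 for ADH4 (0.809) and 1.46 for VEL1 (0.809). The ZPS1 value was thus much smaller there, while those of ADH4 and VEL1 were closer to the mean of all 3. ZPS1 is at XV:34658-35407, VEL1 at VII:11110-11730 and ADH4 at VII:15159-16307 in R64. ZPS1 is named because it passed, although its sign in pPGK1-tRPS3 differs from the others. VEL1 shares sequence with a near copy, so its counts may include reads of that gene.

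ZPS1 shows how the libraries lie. It had 520, 291, 544 and 341 CPM in pRPS3-tRPS3 modNNN libraries, against 13.8 and 10.9 CPM in the unmodified pair. In pPGK1-tRPS3 it had 963 and 727 CPM with modNNN, against 1109 and 616 CPM, which overlap. In pTSA1-tTSA1 it had 1375 and 864 CPM with modNNN, against 129.5 and 647 CPM. The unmodified pRPS3-tRPS3 pair was lowest of the 14 libraries by a wide margin. In the 20 libraries with other plasmids ZPS1 ran from 7.32 to 1112 CPM, so both extremes also occur there.

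ADH4 and VEL1 were also higher with modNNN in pRPS3-tRPS3 and pTSA1-tTSA1. ADH4 had 226, 185, 261 and 198 CPM in pRPS3-tRPS3 modNNN libraries, against 90.2 and 70.3 CPM in unmodified ones. In pTSA1-tTSA1 it had 668 and 432 CPM with modNNN, against 96.8 and 286 CPM, and in pPGK1-tRPS3 790 and 471 CPM, against 587 and 370 CPM. ADH4 groups overlapped only in pPGK1-tRPS3. VEL1 was near its counting limit in pRPS3-tRPS3, with 64 counts in the 4 modNNN libraries together and 5 in the unmodified pair, a ratio of 7.3 per total count with a 95% exact interval of 2.97 to 23.3 that covers counting error only. In pTSA1-tTSA1 it had 151 against 14 counts, a ratio of 5.82 (3.37 to 10.9).

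VEL1, ADH4 and ZRT1 lie close together on the left arm of chromosome VII, between positions 11110 and 22108. MNT2, a mannosyltransferase gene between VEL1 and ADH4 by its identifier, had a log2 mean change of 0.01 (SE 0.11). It was picked after its neighbours' values had been seen.

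**Figure D5:**
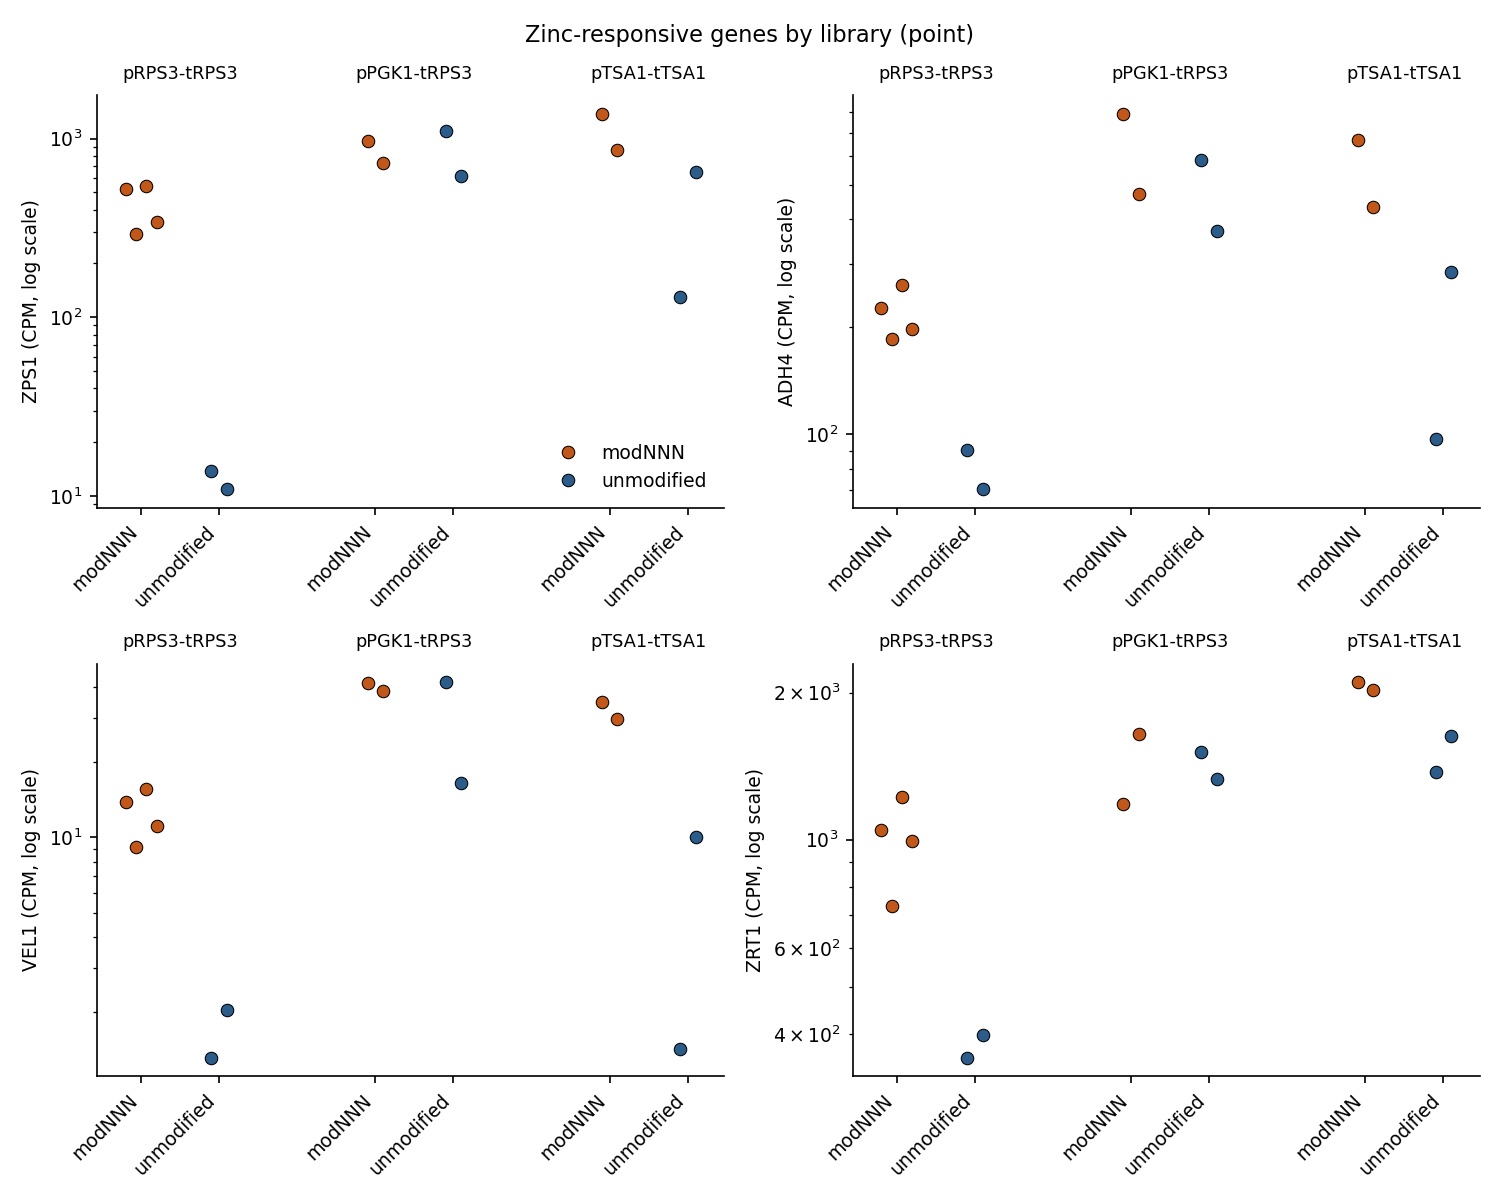
ZPS1, ADH4, VEL1 and ZRT1 in CPM (log y axis) by promoter and terminator combination, modNNN left of unmodified, one point per library. The unmodified pRPS3-tRPS3 pair lies lowest for all 4 genes, or shares the lowest place with an unmodified pTSA1-tTSA1 library for VEL1.

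In pRPS3-tRPS3 taken alone, of 5142 host genes 10 rose (0.194%) and 3 fell (0.0583%) with modNNN. Those that rose were the zinc genes ZPS1 and ZRT1, the phosphate genes SPL2 and PHO12, the reductase gene FRE1, the transporter gene MCH5, TMA19 and 3 ribosomal protein genes. There were many more at an unadjusted edgeR p under 0.05, 592 (11.5%), with 305 higher (5.93%) and 287 lower (5.58%). ZPS1 rose by 5.09 (SE 0.54, edgeR adjusted p = 3.52e-06). ZRT1, the high-affinity zinc transporter, had 1046, 732, 1225 and 994 CPM with modNNN, against 358 and 398 CPM (log2 1.40, SE 0.26, edgeR adjusted p = 0.0103).

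The phosphate genes, FRE1 and MCH5 were lower in level. SPL2, a regulator of low-affinity phosphate transport, had 24.4, 19.8, 34.5 and 14.5 CPM with modNNN, against 6.58 and 4.78 CPM (log2 1.98, SE 0.37, edgeR adjusted p = 0.0103). PHO12, an acid phosphatase whose near copy PHO11 may share its reads, had 51.4, 35.9, 59.5 and 42.9 CPM, against 18.4 and 19.8 CPM (log2 1.29, SE 0.23). FRE1, a ferric and cupric reductase of the plasma membrane, had 55.4, 66.4, 54.3 and 56.7 CPM, against 23.0 and 25.2 CPM (log2 1.27, SE 0.24). MCH5, a riboflavin transporter, had 63.9, 58.7, 54.3 and 56.03 CPM, against 34.9 and 29.3 CPM (log2 0.86, SE 0.16). The adjusted p of these 3 was 0.0103. Groups lay apart for each gene named here, as the rule for naming genes in 1 combination required, so this adds no support.

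TMA19, a protein that associates with ribosomes, rose by 0.66 (SE 0.13, edgeR adjusted p = 0.0193), with 3464 to 4952 CPM in modNNN libraries, against 2531 and 2822 CPM. The ribosomal protein genes RPL35A, RPS17B and RPL21B rose by 0.53, 0.51 and 0.49 (SE 0.11, 0.11 and 0.10), each with a near-identical copy that may share its reads.

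The genes that fell were SGA1, the glucoamylase of sporulating cells, NBA1, a protein of the bud neck, and ARP5, a subunit of the INO80 chromatin remodeller. SGA1 had 11, 12, 4 and 4 counts with modNNN, against 34 and 40, a ratio of 0.239 per total count (95% exact interval 0.152 to 0.368, counting error only). Its fitted change was -2.06 (SE 0.39, edgeR adjusted p = 0.0108). The unmodified pair stood apart for SGA1: the modNNN libraries had 2.77 to 9.15 CPM, against 22.4 and 27.3 CPM, while SGA1 ran from 2.68 to 8.86 CPM in the other combinations and from 2.32 to 11.4 CPM in the 20 libraries with other plasmids. NBA1 ran from 8.42 to 21.95 CPM and from 8.84 to 24.05 CPM there. NBA1 fell by 1.29 (SE 0.24, edgeR adjusted p = 0.0103), with 11.9 to 16.8 CPM against 23.0 and 47.8 CPM. Without the second unmodified library NBA1 changed by -0.68 and no longer passed, and without the first it changed by -1.73. ARP5 fell by 0.64 (SE 0.14, edgeR adjusted p = 0.0415), with 62.95 to 86.7 CPM against 114.5 and 114.6 CPM. In the other combinations ARP5 ran from 77.3 to 94.8 CPM in both groups.

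The number called depended strongly on which library was left out. It was 1 without the second unmodified library, 2 without the first and 34 without the second modNNN library. DESeq2 called 57, which held 7 of the 13 edgeR calls. SPL2, PHO12, SGA1, FRE1, NBA1 and MCH5 were not among them. ZPS1 passed under all 22 settings counted for it, while ARP5 passed under 13 of 22. RPS17B and RPL21B each passed under 14 of 22.

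The other combinations gave no host call. In pPGK1-tRPS3 edgeR called 0 of 5142 genes, with 206 (4.01%) at an unadjusted p under 0.05, and DESeq2 also called 0. The smallest p among positive changes belonged to YOR385W (1.18), NCW2 (0.76) and YOL014W (1.28), and among negative ones to RIX1 (-0.95) and CLN1 (-0.67), at adjusted p of 0.903 to 1.0. In pTSA1-tTSA1 edgeR called 0, with 187 (3.64%) at an unadjusted p under 0.05, and DESeq2 called 3, which were ADH4, VEL1 and TSA1. ADH4 had a log2 change of 1.53 and VEL1 of 2.54 there (edgeR adjusted p 0.239 and 0.36). Both values depended on which unmodified library was kept: without the first the changes were 0.94 for ADH4 and 1.66 for VEL1, and without the second 2.50 for ADH4, which then passed edgeR, and 4.42 for VEL1. MPM1, a mitochondrial membrane protein, had 51 counts with modNNN against 6, a ratio of 4.59 (1.97 to 13.1) and an edgeR adjusted p of 0.239.

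The change of some genes differed between combinations when the difference itself was tested. Against the pRPS3-tRPS3 change, the pPGK1-tRPS3 change was lower by edgeR for ZPS1 (-5.12, SE 0.68, adjusted p = 0.000234), PHO12 (-2.0, SE 0.37, 0.0215) and FRE1 (-1.92, SE 0.36, 0.0215), the 0.0583% called of 5142 genes (6.96% at an unadjusted p under 0.05). Against the same change, that in pTSA1-tTSA1 was lower by edgeR for ZPS1 (-3.56, SE 0.68, adjusted p = 0.0426) and MCH5 (-1.40, SE 0.24, 0.0146), 0.0389% (8.52% at an unadjusted p under 0.05). PHO12 had 13.5 and 12.02 CPM in pPGK1-tRPS3 modNNN libraries, against 18.2 and 24.7 CPM, and FRE1 had 19.6 and 23.5 CPM, against 31.7 and 36.7 CPM. These lie in the opposite order to pRPS3-tRPS3. Between pTSA1-tTSA1 and pPGK1-tRPS3 edgeR called 0 differences, with 177 genes (3.44%) at an unadjusted p under 0.05.

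BTN2, a protein of endosomal sorting and of the heat stress response, kept its groups apart in all 3 combinations without passing. Groups also lay apart in all 3, in either direction, for other genes such as HSP10, URA1 and DUS1. The share of all host genes that do so was not counted, so this separation says nothing particular about BTN2. BTN2 had 40.2, 38.9, 47.0 and 37.4 CPM in pRPS3-tRPS3 modNNN libraries, against 31.6 and 32.1 CPM. In pPGK1-tRPS3 it had 83.1 and 71.5 CPM with modNNN, against 61.6 and 67.1 CPM, and in pTSA1-tTSA1 56.2 and 44.5 CPM, against 27.03 and 29.2 CPM. The log2 mean change was 0.48 (SE 0.11, edgeR adjusted p = 0.169).

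Gene groups were then described by their counts and medians beside the median of all tested genes, which was 0.01 for the log2 mean change. The lists were drawn up with earlier results of these data known. Among 16 zinc-responsive genes 3 rose in the mean of the 3 combinations, and the median change was 0.14. These were ZPS1, ADH4 and VEL1, the calls already given above. Of all 5142 host genes 0.0583% rose in the mean and 0.194% in pRPS3-tRPS3. In pRPS3-tRPS3, 13 of the 16 were positive, 2 rose (ZPS1 and ZRT1) and the median was 0.26, or 10 positive and 0.128 with library totals. In pTSA1-tTSA1 the median was 0.34 (0.418 with library totals) and none passed. In pPGK1-tRPS3 it was 0.04, and -0.03 with library totals. ZAP1, the zinc-responsive activator of these genes, had a log2 mean change of 0.41 (SE 0.13, edgeR adjusted p = 0.698), and the vacuolar zinc exporter ZRT3 had 0.23 (SE 0.09, adjusted p = 0.845).

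Among 17 genes of phosphate supply, 2 rose in pRPS3-tRPS3, SPL2 and PHO12, 15 were positive and the median was 0.29, or 14 positive and 0.145 with library totals. Of all host genes 0.194% rose there. The median was -0.12 in each of the other combinations, where none passed, and -0.2 in pPGK1-tRPS3 and -0.0449 in pTSA1-tTSA1 with library totals. Of 23 iron genes 1, FRE1, rose in pRPS3-tRPS3. The iron median was 0.02 with 12 positive, or -0.119 with 7 positive with library totals.

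Cytosolic ribosomal protein genes were shifted together in pRPS3-tRPS3. Of 56 small-subunit genes 1 rose, 55 were positive and the median was 0.35, or 52 positive and 0.22 with library totals. Of 81 large-subunit genes 2 rose, 77 were positive and the median was 0.32, or 69 positive and 0.179 with library totals. The unadjusted edgeR p was under 0.05 with a positive sign for 28 and 35 genes of these groups, and for 305 of all 5142 host genes (5.93%). In pPGK1-tRPS3 the medians were 0.07 and 0.08, and about 0 with library totals. In pTSA1-tTSA1 they were -0.09 and -0.15, or -0.01 and -0.06 with library totals. Genes of ribosome biogenesis had medians of 0.05 in pRPS3-tRPS3 (-0.07 with library totals), -0.23 in pPGK1-tRPS3 and -0.15 in pTSA1-tTSA1, and none passed. Native RPS3 is among the small-subunit genes, and how reads that it shares with the reporter were counted is not given in the sources used here.

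Genes of mRNA 3′-end formation and decay held no called gene, where 0.0583% of all host genes were called and 5.8% had an unadjusted p under 0.05. Of 28 genes of cleavage and polyadenylation 0 passed edgeR in the mean of the 3 combinations, with 1 at an unadjusted p under 0.05 (RTT103, a termination factor, -0.28) and a median of -0.04. Of 34 genes of mRNA decay 0 passed, with 2 at an unadjusted p under 0.05, the decapping-complex subunit LSM2 (0.21) and the decapping activator DHH1 (-0.45). Of 19 RNA-binding regulators 0 passed and 0 had an unadjusted p under 0.05. DESeq2 called none of these genes, since its 3 calls were those named above. Mitochondrial ribosomal proteins (median -0.01 over 53 genes), the proteasome (0.02 over 33) and glycolysis (0.08 over 20) also held no called gene in the mean. At these shares an absence of calls in lists of this size says nothing particular about them.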

How the data were processed

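The deposited tables give raw read counts per gene. For mCherry, RPS3, TSA1, PGK1 and URA3 they also give, as deposited, the count of 3′ ends at every position up to 200 nt past the stop codon. Per the submitters' processing notes, the authors used FastQC, MultiQC, cutadapt, HISAT2, SAMtools, featureCounts and bedtools with the sacCer3 (R64) build. Their settings, and how reads shared by the reporter and a native gene were treated, are not given in the sources used here. Of 5698 features, 5550 matched a RefSeq locus tag.

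Samples were grouped by their labels. The quasi-likelihood test of edgeR 4.0.16 (run in R 4.3.3 with limma 3.58.1) was applied to these counts after TMM scaling and filterByExpr, with 1 coefficient for each of the 16 plasmid groups over 34 libraries. The mean of the 3 promoter and terminator combinations, each combination and the differences between them were tested. The missing mCherry entry of the plasmid without a reporter was set to 0. The 2 plasmid features were left out of the host calls, and 5142 host genes were tested with Benjamini-Hochberg adjustment over all of them. A call is an adjusted p under 0.05. Single values were compared by exact 2-sided permutation of libraries within combinations (Python 3.11.15, numpy 2.4.6, pandas 2.3.3, scipy 1.17.1). Figures were drawn with matplotlib 3.10.9.

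The tables hold reads and not molecules, so intervals and floors cover counting error only. The genes compared and the gene lists were chosen with earlier results of these data known. Named genes are the largest called changes, at most 12 in each direction, that keep one sign in all combinations (for the mean) or groups apart (for one combination). Where none was called, they are up to 5 in each direction with the smallest p. The marker genes, native genes and the first members of each list are named besides. A called gene outside this rule, ZPS1 in the mean, is said to be so.

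The fit was tested on simulated counts with 200 of 5128 genes changed by 1 on the log2 scale. Recovery was 98.5% for the mean, 80.5% for pRPS3-tRPS3, 74.5% for pPGK1-tRPS3 and 73% for pTSA1-tTSA1, with 2.96%, 4.17%, 5.1% and 3.95% false calls. Genes were drawn independently there, while the first component of the residuals of the real libraries took 25.92% of their variance. Alternatives were DESeq2 1.42.0, library totals, other count filters, the 14 libraries alone, a replicate block, a residual component as covariate, URA3 or native genes as denominators, other summaries of end positions and each library left out.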

Additional observations from a re-analysis of the deposited data

Results flagged for a closer look

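In the group of 4 modNNN libraries of pRPS3-tRPS3, 34 measures were examined for a library far from the others, and 3 had one; chance gives about 1 in 20. Replicate 1 had 6.79% of native RPS3 ends beyond position 100, against 4.82% to 4.96% in the others. Replicate 3 had 1368 CPM of RPL35A, a ribosomal protein gene, against 1198 to 1227 CPM. Replicate 3 also had 1.6% of reporter ends at positions 89 to 90, against 1.06% to 1.14%.

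The change of several measures differed between combinations when the difference was tested. Relative to pRPS3-tRPS3, the log2 change in pPGK1-tRPS3 was lower by 2.0 for PHO12 (-2.0), by 1.92 for FRE1 (-1.92) and by 5.12 for ZPS1 (-5.12), by edgeR. The pTSA1-tTSA1 change was lower for ZPS1 (-3.56) and MCH5 (-1.40). For the reporter, the change with tTSA1 minus that with tRPS3 was 0.86 for the log2 ratio of mCherry to URA3 and 1.42 for log2 mCherry CPM, by exact permutation. ZPS1 had 520, 291, 544 and 341 CPM in the pRPS3-tRPS3 modNNN libraries, against 13.8 and 10.9 CPM in the unmodified pair, and at least 129.5 CPM in the other combinations.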

How the results depend on the processing

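Calls across all genes depended on the fit, and the cause was not tested. The reporter's change in pRPS3-tRPS3 passed with DESeq2 (-0.91) and with the residual component as covariate (-0.91), and the pTSA1-tTSA1 minus pRPS3-tRPS3 difference passed with the covariate (1.56). The pPGK1-tRPS3 minus pRPS3-tRPS3 difference turned to -0.42 with URA3 as the size factor and ran from -0.29 to 0.96 with single libraries left out (-0.29 without pPGK1-tRPS3 unmodified replicate 2, -0.0453 without modNNN replicate 1). The pPGK1-tRPS3 change ran from -1.20 to 0.04 with libraries left out, and was 0.0442 without unmodified replicate 1. Host calls in the mean were 0 with only the 14 libraries (additive terms; 202 at an unadjusted p under 0.05), 2 with 1 coefficient per group there, 9 with the covariate and 1 to 4 with libraries left out. They were 1 without pRPS3-tRPS3 unmodified replicate 2, pTSA1-tTSA1 modNNN replicate 1, pPGK1-tRPS3 unmodified replicate 2 or pPGK1-tRPS3 modNNN replicate 1. ZPS1 passed under 22 of 24 settings there and ADH4 under 17 of 24. In pRPS3-tRPS3 they were 57 with DESeq2, 6 with only the 14 libraries, 95 with the covariate, 2 with modNNN replicates 1 and 2 alone, and 1 to 34 with libraries left out. In pPGK1-tRPS3 they were 1 with the covariate and 0 to 9 with libraries left out (9 without modNNN replicate 2, 1 without unmodified replicate 1). In pTSA1-tTSA1 they were 3 with DESeq2, 1 with library totals, 66 with the covariate and 0 to 2 with libraries left out (2 without unmodified replicate 2). Library totals moved the median of all genes in pRPS3-tRPS3 by -0.129.

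The tRPS3 ratio changed by -0.89 (exact p = 0.122) with native genes as denominator, -0.48 (exact p = 0.0556) with modNNN replicates 1 and 2 alone, and -0.46 to -0.41 with libraries left out (exact p = 0.0667 without pRPS3-tRPS3 unmodified replicate 2). The RPS3 end shift was 0.667 nt by the median position and 0.156 nt within positions 1 to 100. The TSA1 end shift turned to -0.25 nt by the median and -0.022 nt over positions with at least 1% of ends, and ran from -0.0233 to 0.0727 nt with libraries left out. The URA3 end shift turned to 0.0165 nt over positions with at least 1% of ends. Of 308 values with 1 library left out, 293 kept their direction and side of the threshold or, for numbers of calls, stayed about the same. For single genes 703 of 807 values kept direction and side. Many of these genes had not passed, and not passing again was counted as kept.

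Replicate numbers were not taken as pairs in the main tests. Same-numbered deviations correlated at 0.163 and 0.0275 in pRPS3-tRPS3, 0.26 in pPGK1-tRPS3 and -0.152 in pTSA1-tTSA1. In pPGK1-tRPS3 replicate 1 had more mCherry than replicate 2 with either terminator. The values were 7789 against 5604 CPM with modNNN and 15429 against 6440 CPM with the unmodified terminator. Whether the numbers pair the libraries there is not settled. With the number as a block, mCherry changed by -0.31 in the mean, -0.85 in pRPS3-tRPS3, -0.71 in pPGK1-tRPS3 and 0.64 in pTSA1-tTSA1, and host calls were 2, 3, 0 and 0. The tRPS3 ratio was -0.48 and the reporter end shift 9.04 nt under the block, where the smallest exact p is 0.125. With 2 libraries in most groups, differences of single combinations cannot reach an exact p under 0.05.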
